A study of Mus musculus with 8 samples.

Results

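The distal end of mouse chromosome 2, from 120 Mb to the last listed region at 182 Mb of the build GRCm38, was examined for H3K27me3, trimethylation of lysine 27 of histone H3, in 3T3 fibroblasts. Its 9469 regions are all rows of the authors' deposited table that start at or beyond 120 Mb on this chromosome, out of 265968 rows in all (3.56%). A mark at 140 Mb divides them into 1931 regions below and 7538 beyond. The stretch and the mark were chosen by the deposited values themselves, from the set with the higher values along the chromosome, so which set is higher is described here and not tested. The place of the change was read again from the values: the lean of the 1 Mb windows turned first at 133 Mb, and no region lay within 100 kb of 140 Mb, so the single switch at 140 Mb by which the stretch had been known was not seen.

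The labels give 3 immunoprecipitated libraries, called biological replicates, of cells carrying a control construct and 3 of cells carrying a construct that overexpresses NNMT. All cells were kept for 48 h with 10 µM methionine and 10% dialyzed serum. 3T3 is an immortalised mouse embryonic fibroblast line; the labels used here do not say whether either construct is a single clone, and no expression was measured that would check the construct or the cell type. The input libraries, 1 per construct, were not analysed here. NNMT transfers a methyl group from S-adenosylmethionine to nicotinamide, and the comparison asks where the histone mark differs between the constructs.

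H3K27me3 is laid down by Polycomb repressive complex 2, whose catalytic subunit also takes its methyl group from S-adenosylmethionine. The mark forms narrow peaks and broad domains, typically over developmental regulators, signalling genes and lineage genes that a cell does not use, and is usually low over genes that every cell transcribes. CpG-rich promoters of silent developmental genes are its best known landing sites.

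The deposited table gives 6 whole-number values for each region, 3 for a set of libraries listed first (set 1) and 3 for a set listed second (set 2). No source used here says which set is NNMT or how the libraries of a set are ordered, so every direction is given by set. The values look rescaled, and how they were scaled, and whether the inputs entered them, was not given in the sources used here. A difference in DNA dosage and a difference in the mark cannot be told apart in any result. In place of an error each ratio of sums carries its lowest and highest value among the 9 possible pairings of libraries from either set, and values are called separated where all 3 of one set exceed all 3 of the other. With 3 libraries against 3 an exact permutation test cannot go below p = 0.1, and sequencing depth is unknown. Over the whole table the sum of set 1 was 1.14-fold that of set 2. Rescaling the sets to equal sums lowers every log2 ratio (set 1 over set 2) by 0.19. Directions of windows, pieces and listed genes that this turns are named or counted beside them. Among the members, Pearson correlations lay between 0.935 and 0.945 within a set and between 0.810 and 0.848 across sets (log2 values over 9469 regions, which are neighbours and were listed for a difference).

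The 6 promoter sequences below show promoters that regions overlapped, from CpG-poor to CpG-rich and with either set higher; they were picked after their values were seen. Each is the 250 bases before a gene's outermost annotated start, from RefSeq on GRCm38.p6, read 5′ to 3′ on the gene's strand, with every CG in capitals.
Pdyn (chr2:129699939-129700188, minus strand): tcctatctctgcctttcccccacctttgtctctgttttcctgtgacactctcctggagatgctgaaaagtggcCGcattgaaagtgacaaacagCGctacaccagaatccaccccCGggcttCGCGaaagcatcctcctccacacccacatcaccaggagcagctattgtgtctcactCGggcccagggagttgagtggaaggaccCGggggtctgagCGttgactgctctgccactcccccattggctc
Banf2 (chr2:144032852-144033101, plus strand): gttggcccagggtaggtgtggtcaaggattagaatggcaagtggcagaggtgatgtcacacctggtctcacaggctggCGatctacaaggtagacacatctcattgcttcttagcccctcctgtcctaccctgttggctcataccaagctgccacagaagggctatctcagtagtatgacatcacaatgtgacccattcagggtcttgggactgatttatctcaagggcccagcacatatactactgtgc
Bpifa1 (chr2:154142630-154142879, plus strand): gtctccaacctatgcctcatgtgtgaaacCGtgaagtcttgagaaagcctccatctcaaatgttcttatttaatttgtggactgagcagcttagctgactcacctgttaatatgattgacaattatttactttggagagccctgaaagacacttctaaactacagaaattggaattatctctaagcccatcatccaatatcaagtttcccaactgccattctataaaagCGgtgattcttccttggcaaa
Sulf2 (chr2:166155684-166155933, minus strand): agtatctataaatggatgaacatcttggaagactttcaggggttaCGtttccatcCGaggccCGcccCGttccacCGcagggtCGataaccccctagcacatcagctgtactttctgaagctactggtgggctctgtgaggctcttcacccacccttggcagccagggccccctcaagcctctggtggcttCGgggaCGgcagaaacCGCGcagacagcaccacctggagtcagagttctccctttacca
Mc3r (chr2:172248242-172248491, plus strand): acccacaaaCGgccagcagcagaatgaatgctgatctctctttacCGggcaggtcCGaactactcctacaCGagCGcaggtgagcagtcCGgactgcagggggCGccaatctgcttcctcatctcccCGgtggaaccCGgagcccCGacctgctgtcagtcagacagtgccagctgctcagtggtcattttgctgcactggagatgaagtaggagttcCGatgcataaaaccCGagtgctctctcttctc
Ntsr1 (chr2:180499726-180499975, plus strand): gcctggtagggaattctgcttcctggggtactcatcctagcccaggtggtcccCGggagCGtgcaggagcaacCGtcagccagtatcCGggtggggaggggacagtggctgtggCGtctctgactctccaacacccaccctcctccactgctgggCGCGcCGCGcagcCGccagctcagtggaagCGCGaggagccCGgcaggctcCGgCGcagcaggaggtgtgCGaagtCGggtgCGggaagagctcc

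These windows hold 8, 1, 2, 10, 12 and 18 CG pairs in the order printed. At Pdyn, the gene for an opioid peptide precursor, the region over the start had values of 1350, 1480 and 1558 in set 1 against 1119, 1254 and 1334 in set 2. At Banf2 the values were 246, 226 and 209 against 135, 205 and 148, and at Sulf2, a heparan sulfate endosulfatase that edits growth factor binding sites on the cell surface, 1301, 1241 and 1212 against 319, 315 and 448. Set 1 was higher in all 3 of these regions, by 1.18-fold, 1.39-fold and 3.47-fold, and the sets did not overlap. At Bpifa1, a secreted airway protein, set 1 had 1258, 1030 and 1165 and set 2 had 1564, 1703 and 1675. At Mc3r, a melanocortin receptor, the region ended before the start and covered 109 of the 250 bases; its values were 151, 85 and 71 against 184, 222 and 168, and at Ntsr1, a neurotensin receptor, 1434, 1464 and 1559 against 1817, 2275 and 1816. Set 2 was higher in these regions by 1.43-fold, 1.87-fold and 1.33-fold, again without overlap.

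Below 140 Mb the members leaned to set 1, and beyond it to set 2. Of the 1931 regions below, 1461 had the higher sum in set 1 and 470 in set 2, so that 75.7% were higher in set 1 (95% Wilson interval 73.7 to 77.5, counting error only) against 59.5% of the whole table. Of the 7538 regions beyond, 2212 had the higher sum in set 1 and 5326 in set 2. That is 29.3% for set 1 (28.3 to 30.4), against the same 59.5% of the whole table. The remaining 12182 regions of the chromosome, before 120 Mb, were higher in set 1 in 77.1% of cases. The stretch and the mark were chosen by this measure, so no conclusion is drawn from these shares.

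Separated regions numbered 993 for set 1 and 293 for set 2 below 140 Mb, and 1274 and 3676 beyond; 40.5% of the whole table was separated with set 1 above and 24.7% with set 2 above. A ratio of 2-fold or more was reached by 393 regions for set 1 and 208 for set 2 below, and by 570 and 2077 beyond, beside 22.3% and 12.9% of the whole table. Since the stretch was chosen by these values, nothing is read from the counts against those shares.

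Summed values showed the same lean in every library. Below 140 Mb the libraries of set 1 summed to 447596, 448845 and 431316 and those of set 2 to 335879, 340720 and 332540. Beyond it the sums were 1186786, 1189697 and 1123257 in set 1 against 1371322, 1444362 and 1366161 in set 2. The sets overlapped on neither side: set 1 was 1.32-fold higher below (1.27 to 1.35 over library pairs, log2 ratio 0.40) and set 2 was 1.19-fold higher beyond (1.15 to 1.29, log2 ratio −0.26). The regions covered 2010 kb below and 6401 kb beyond. Per kilobase of listed region the mean over libraries was 220 in set 1 and 167 in set 2 below, and 182 and 218 beyond.

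At the 120 Mb threshold of the choice itself nothing turned. The last region before it had 42, 73 and 93 in set 1 against 31, 15 and 62 in set 2. The first region inside had 114, 120 and 107 against 62, 51 and 70. In the 1 Mb window before the threshold 94 of 100 regions were higher in set 1, and in the window after it 101 of 111.

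Seen in 1 Mb windows, the chromosome changed its lean several times. Windows 123, 138, 175 and 176 (named by their start in Mb) held no region, which left 18 windows below 140 Mb and 40 beyond. Below, 14 leaned to set 1 and 4 to set 2, with 2 windows whose sets overlapped. Beyond, 8 leaned to set 1 and 32 to set 2, with 7 overlapping. Of those that leaned to set 1, 3 below (121, 124 and 134) and 6 beyond (155, 156, 164, 165, 166 and 168) turned to set 2 on rescaling. The lean of neighbouring windows changed 9 times in all, at 133, 134, 136, 140, 141, 155, 157, 164 and 169 Mb. Some of these turns were slight: at 134 Mb the log2 ratio rose only to 0.035, and at 164 Mb it went from −0.0019 to 0.0018. The sets overlapped in the windows at 134, 163 and 164 Mb.

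**Figure D1:**
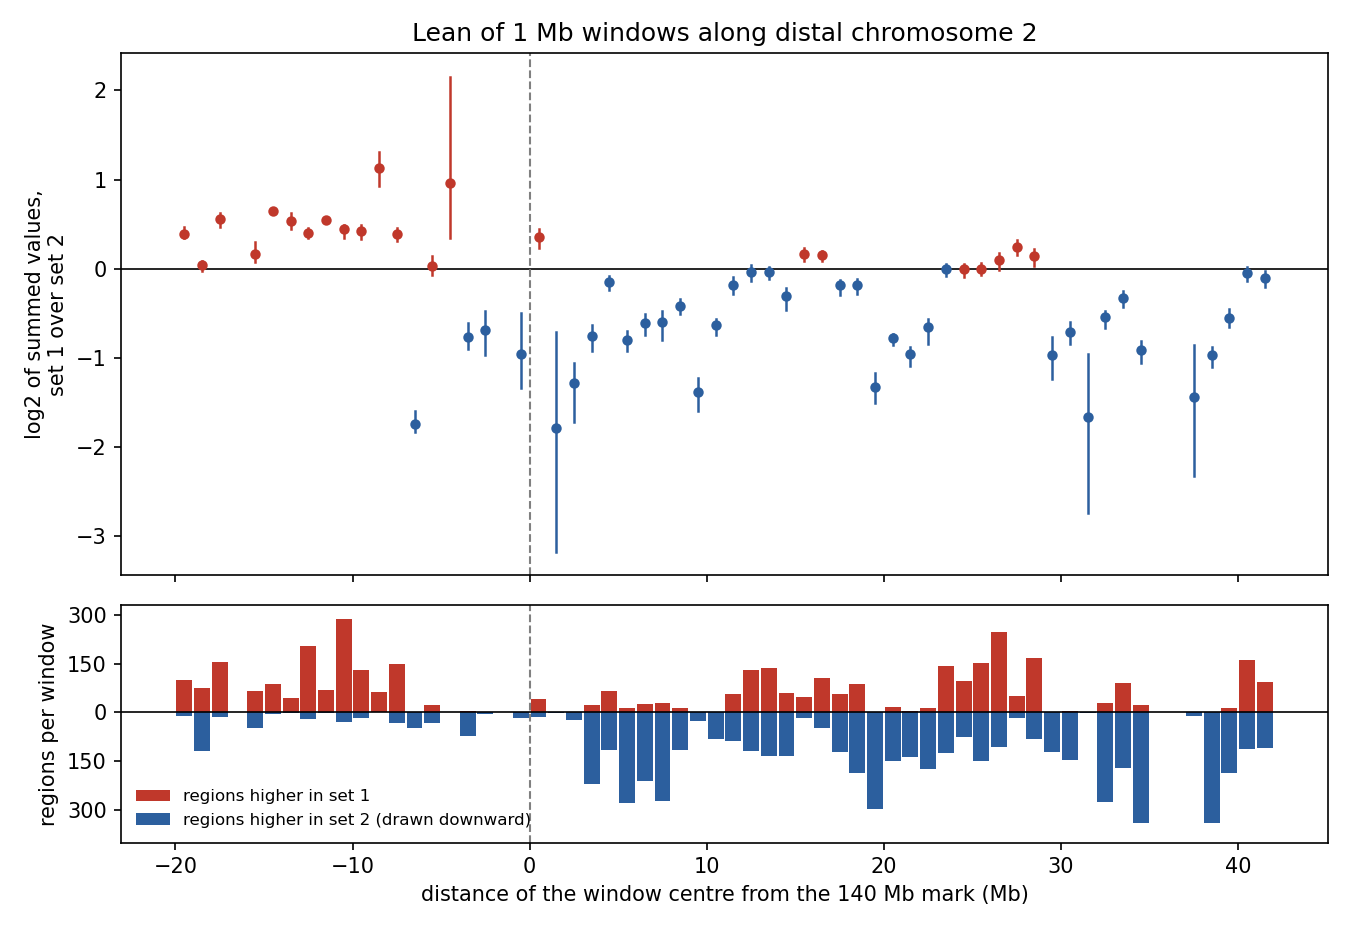
Upper panel, log2 ratio of summed values (set 1 over set 2) for each 1 Mb window with regions, as a point with a line for the range over 9 library pairs, against distance from the 140 Mb mark; lower panel, regions per window higher in set 1 (upward) and in set 2 (downward). Windows on the left lie above 0 up to 7 Mb before the mark, those just before and after the mark hold few regions, and on the right 32 of 40 lie below 0.

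Within the long block that leaned to set 1, the window at 121 Mb had overlapping sums, and 118 of its 194 regions were higher in set 2. They included a run of 71 regions (121722301 to 121850750), 2.48-fold higher in set 2 by sum, whose span overlapped the gene Frmd5. The window that began at 132 Mb was the last of this block. Its sums were 30026, 31147 and 28547 in set 1 against 22890, 23050 and 22662 in set 2, a log2 ratio of 0.39. In the next window, at 133 Mb, they were 405, 429 and 411 in set 1 against 1291, 1443 and 1410 in set 2, a log2 ratio of −1.73, and all 49 regions were higher in set 2. Counted over single regions along the chromosome, the surplus of set 1 peaked nearby, at a region in Fermt1 (132943701 to 132944050). Of the 1711 regions up to it 83.3% were higher in set 1, and of the 7758 after it 29.0%. This count uses the same values as the windows, and the split was placed where the surplus was largest, so it is no separate support.

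Around the 140 Mb mark itself the sparse regions mostly leaned to set 2 on both sides. Within 5 Mb below the mark 9 of 102 regions were higher in set 1, and within 5 Mb beyond it 131 of 505. The window at 139 Mb had sums of 416, 591 and 402 in set 1 against 871, 836 and 1014 in set 2. The window at 140 Mb went the other way, with 5843, 5583 and 5657 against 4297, 4311 and 4735, and the window at 142 Mb had 332, 327 and 237 against 781, 689 and 708. Immediately at 140 Mb the change was therefore from set 2 to set 1 (log2 ratios −0.95 and 0.36), and the window at 141 Mb leaned to set 2 again.

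**Figure D2:**
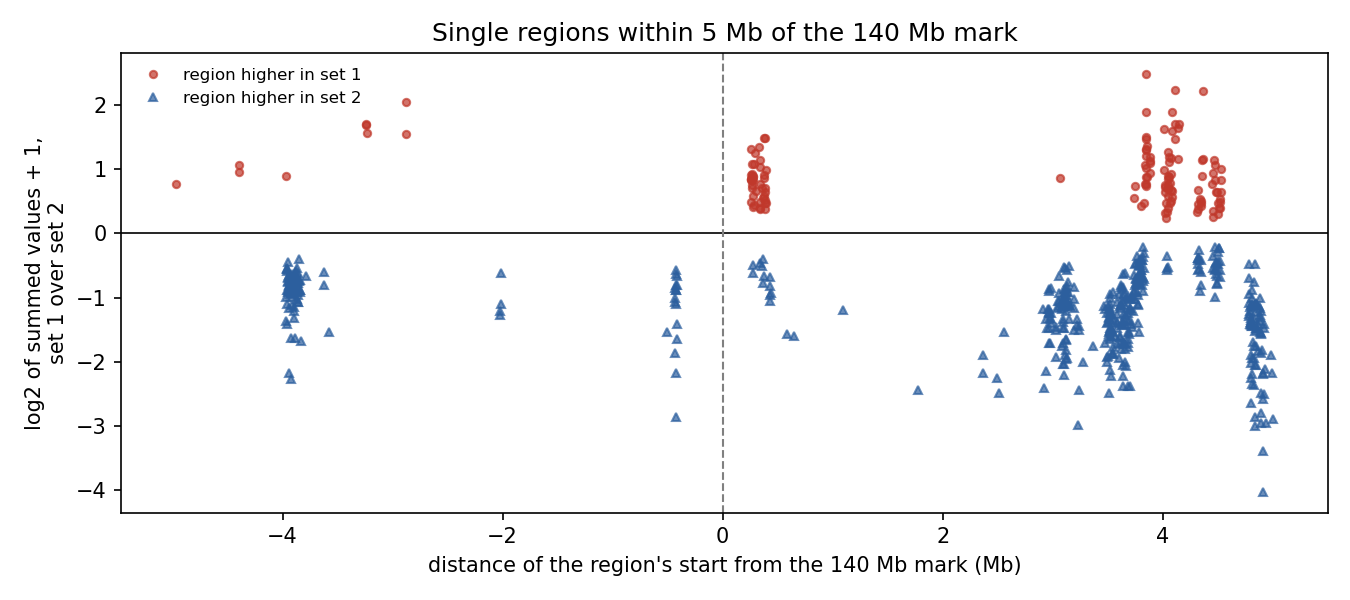
Log2 ratio of each region within 5 Mb of the 140 Mb mark (pseudocount 1, set 1 over set 2) against the distance of its start from the mark. Of the 102 regions on the left 93 are higher in set 2, a cluster higher in set 1 lies just right of the mark, and no region lies within 100 kb of it.

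Around the mark, genes with regions lay between long spans without any. From 133 to 143 Mb the listed regions covered 1.06% of the sequence, and 2.4 named genes per Mb were centred there. Between 137990001 and 139493500 no region was listed, and the gene inside that gap is Btbd3, a BTB-domain protein of neurons. The genes without a region also included Jag1, a Notch ligand, Ism1, a secreted antagonist, Plcb4, a phospholipase, Tasp1, a protease, and Flrt3, an adhesion protein. A list of genes around the mark held 16 below it and 30 beyond. Of those below, 7 carried a region, 3 with sums higher in set 1 and 4 in set 2, and their median log2 ratio was −0.79, beside 0.51 over all 72 genes with regions on that side. Beyond, 13 carried one, 6 and 7, with a median of −0.14 beside −0.13 over all 224.

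Bmp2, a bone morphogenetic protein, was the first gene of the side that leaned to set 2. Its 8 regions (gene span 133552159 to 133562896) summed to 70, 71 and 62 in set 1 against 269, 371 and 284 in set 2. All 8 were separated, and set 2 was 4.55-fold higher (3.79 to 5.98 over pairs). They belonged to a run of 81 regions in a row higher in set 2, from 133019251 to 134171150, in which Bmp2 was the only named gene. Before it lay Fermt1, the integrin adaptor kindlin-1, with 11 regions leaning to set 1 and 8 to set 2, whose sums of 2333, 2460 and 2047 against 2006, 2231 and 2227 overlapped (log2 ratio 0.08, or −0.11 after rescaling). The last region that touched Fermt1 and the first that touched Bmp2 lay 610.8 kb apart, with 26 regions between them.

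Between 134 and 137 Mb genes with opposite leans lay next to each other. Hao1, a hydroxyacid oxidase of liver, had 2 regions with sums of 93, 103 and 90 in set 1 against 30, 76 and 27 in set 2. Snap25, a synaptic vesicle fusion protein, had 3 regions with 70, 56 and 73 against 18, 21 and 22. At both, all 3 sums of set 1 lay above those of set 2. Lamp5, a lysosomal membrane protein of neurons, and its neighbour Pak7, a p21-activated kinase, went the other way: Lamp5 had 627, 669 and 641 in set 1 against 1145, 1124 and 1080 in set 2 over 12 regions, and Pak7 2831, 2636 and 2535 against 4868, 4803 and 4320 over 45. Every region of both genes was higher in set 2, by 1.73-fold (1.61 to 1.83) and 1.75-fold (1.53 to 1.92) in sum. Sptlc3, a subunit of the serine palmitoyltransferase that starts sphingolipid synthesis, was the gene with regions nearest to the mark from below, with 416, 591 and 402 against 871, 836 and 1014 over 17 regions, all higher in set 2.

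The nearest gene with regions beyond the mark was Sel1l2, a homologue of an endoplasmic reticulum quality control protein. Its 48 regions, 41 of them higher in set 1, summed to 5300, 5196 and 5241 in set 1 against 3582, 3389 and 3755 in set 2, a ratio of 1.47 (1.38 to 1.56). Its neighbour Macrod2, an ADP-ribose hydrolase whose gene spans 1998 kb, had 11 regions that summed to 567, 392 and 427 in set 1 against 767, 968 and 1033 in set 2, all higher in set 2 by 2.00-fold in sum (1.35 to 2.64). The sets did not overlap at either gene, and 38.55 kb without a region separated the last region of Sel1l2 from the first of Macrod2.

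A still closer change of direction lay between Pcsk2 and Bfsp1. Pcsk2, a proprotein convertase of neuroendocrine cells, carried 112 regions, 109 of them higher in set 2, with sums of 7760, 7983 and 6887 in set 1 against 11706, 13321 and 12165 in set 2 (1.64-fold, 1.47 to 1.93). Bfsp1, a beaded filament protein of the lens, carried 23 regions, 20 of them higher in set 1, with 1725, 1616 and 1721 against 1141, 1137 and 1097 (1.5-fold, 1.42 to 1.57). The last region of the former and the first of the latter lay 5.8 kb apart, with 2 other regions between. The genes after it, Rrbp1, Banf2 and Banf2os, also had higher sums in set 1, and Ovol2, an epithelial zinc finger factor, higher sums in set 2 (2565, 2787 and 2544 against 2896, 3145 and 3425).

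**Figure D3:**
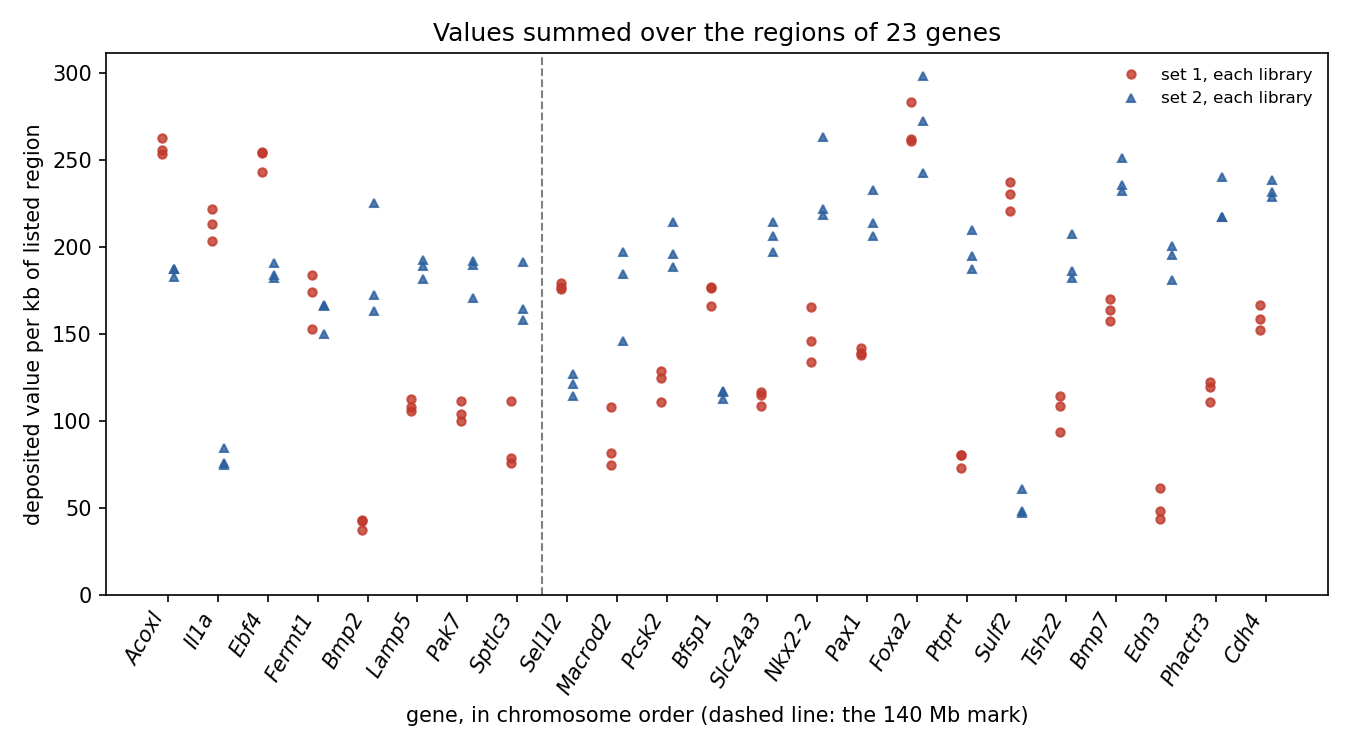
Deposited value per kilobase of listed region in each library, summed over the regions of 23 genes in chromosome order, with circles for set 1 and triangles for set 2 and a dashed line at the 140 Mb mark. Circles lie above triangles at Acoxl, Il1a, Ebf4, Sel1l2, Bfsp1 and Sulf2, the sets overlap at Fermt1 and Foxa2, and triangles lie above circles at the other 15 genes.

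Neighbouring windows were joined into 8 pieces after their values were seen, and some pieces held windows of both leans. From 120 to 133 Mb 82.9% of 1726 regions were higher in set 1, with a mean of 224 per kilobase in set 1 and 167 in set 2. From 133 to 143 Mb, the piece around the mark, 25.2% of 286 regions were higher in set 1 (log2 ratio −0.34), with windows of either lean. Beyond 143 Mb pieces that leaned strongly to set 2 alternated with pieces near balance. The former were 143 to 151 Mb (11.8% of 1494 regions higher in set 1, log2 ratio −0.57), 159 to 163 Mb (4.42% of 792, −0.84) and 169 to 180 Mb (9.29% of 1755, −0.67). The latter were 151 to 159 Mb (44.7% of 1533, −0.10), 163 to 169 Mb (60.9% of 1405, 0.05, or −0.15 after rescaling) and 180 to 182 Mb (53.6% of 478, −0.06).

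Between the pieces beyond 143 Mb the level of set 1 moved more than that of set 2. In the 3 pieces that leaned strongly to set 2, the mean per kilobase was 133, 119 and 133 in set 1 against 198, 213 and 212 in set 2. In the 3 pieces near balance it was 215, 223 and 227 in set 1 against 230, 216 and 238 in set 2. Over the 6 pieces beyond 143 Mb set 1 thus ranged from 119 to 227 and set 2 from 198 to 238. Set 2 lay lower before 143 Mb, with 167 from 120 to 133 Mb and 154 from 133 to 143 Mb. Set 1 had 224 and 122 there. The pieces were cut and sorted by the ratio of these same values, so nothing is read from the difference in range. These are levels over regions that were listed because the sets differ, so regions alike in both sets do not enter them.

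**Figure D4:**
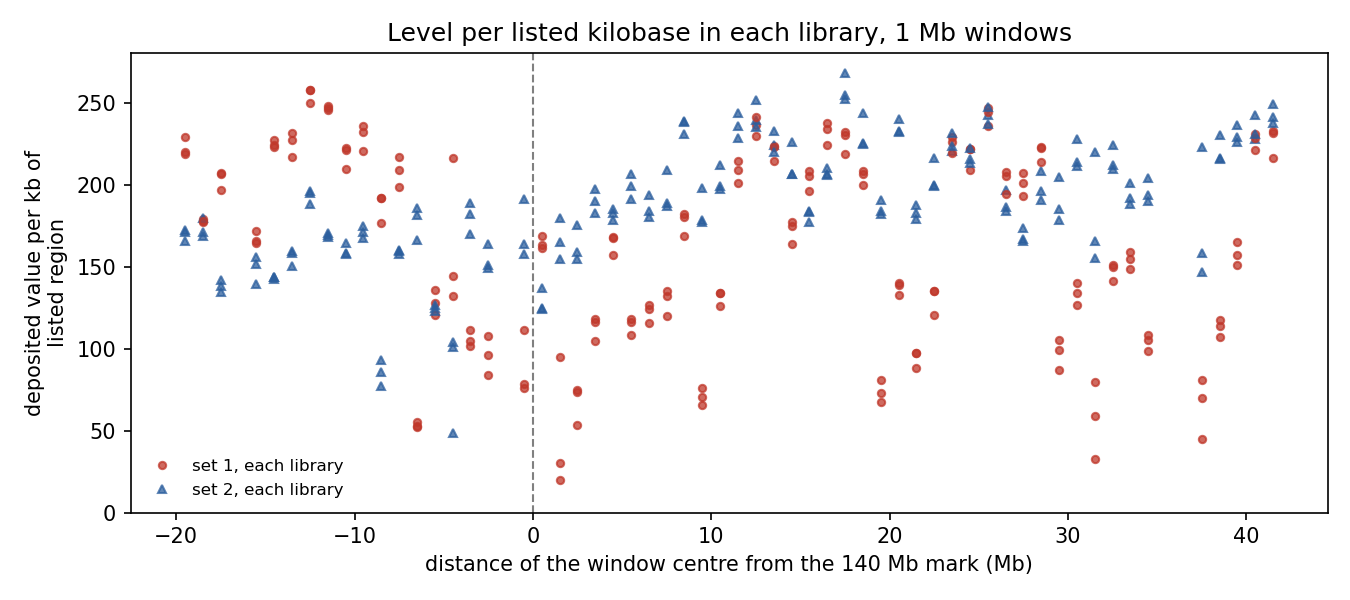
Deposited value per kilobase of listed region in each library and 1 Mb window against distance from the 140 Mb mark, with circles for set 1 and triangles for set 2. Circles lie above triangles in most windows more than 7 Mb before the mark, and beyond it circles drop well below 150 in some blocks of windows while triangles mostly stay between 150 and 250.

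Gene number moved with the lean of the windows. The pieces near balance held 20, 19.5 and 30 named genes per Mb, and the pieces that leaned strongly to set 2 held 8.5, 2.75 and 5.09. Over the 52 windows with at least 20 regions the number of genes and the log2 ratio correlated at 0.49 (Pearson) and 0.56 (Spearman). The values were 0.58 and 0.68 over the 37 windows beyond the mark and 0.51 and 0.33 over the 15 below. Windows share libraries and neighbours, and gene number goes with other properties of the sequence whose part was not tested, so this is a description.

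**Figure D5:**
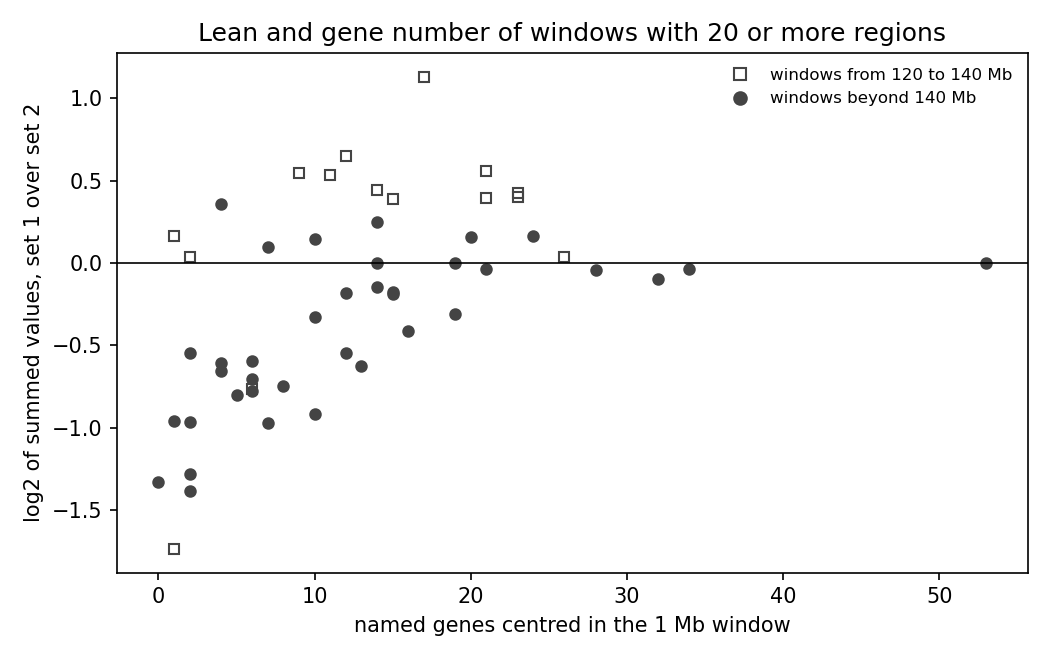
Log2 ratio of summed values (set 1 over set 2) of each 1 Mb window with at least 20 regions against the number of named genes centred in it, with open squares for windows below the 140 Mb mark and filled circles for windows beyond. The windows beyond the mark with under 10 genes lie mostly below −0.5, and those with more than 20 genes lie near 0.

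Beyond the mark, where 5326 of 7538 regions were higher in set 2, unbroken runs numbered 803 for each set. Of these, 17 for set 2 held at least 50 regions, 2779 in all, against 4 for set 1 with 235. Runs were counted by the values that the stretch was chosen by, and not over the whole table, so nothing is read from their number. The longest, 397 regions from 174579951 to 178337600, held the genes Zfp831, Edn3 and Phactr3. Within its span, 5 clustered zinc finger genes lay inside a gap of 2.39 Mb without a region and 4 more inside a gap of 0.753 Mb. Its sums were 26307, 26128 and 23540 in set 1 against 51390, 55602 and 51024 in set 2, 2.08-fold higher in set 2. The next, 364 regions from 158920501 to 160252850, touched no named gene and had 10313, 9375 and 8720 against 21606, 22843 and 21992, 2.34-fold higher in set 2. In both runs every library of set 2 stood above every library of set 1. Other runs, of 320, 285 and 284 regions, overlapped Slc24a3, Ptprt and Cdh4 in turn, and each also held regions outside these genes. Below the mark the longest run was of set 1, with 105 regions from 128594851 to 129369200 that included Il1a and Il1b. Runs of at least 50 regions on that side numbered 4 for set 1 and 3 for set 2.

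Of the 690 named genes of the stretch, 211 lay below the mark and 479 beyond, and a gene was counted where a region touched its span or 2 kb on either side. Below, 67 carried a region higher in set 1 and 37 a region higher in set 2. Beyond, these were 174 and 163, beside 27.5% and 18.5% of all 20503 named genes. By summed values 65 of 72 genes with regions below the mark leaned to set 1 and 7 to set 2 (63 and 9 after rescaling), and beyond it 96 of 224 leaned to set 1 and 128 to set 2 (78 and 146 after rescaling). The side beyond the mark thus held genes of both directions in number, although its regions were mostly higher in set 2. Gene lists below were drawn up with earlier results of these data known, and their counts are descriptions.

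Among secreted signals and their receptors below the mark, 4 of 5 genes with regions leaned to set 1, Bmp2 being the exception, beside 65 of 72 genes of any kind on that side. Il1a, the alarmin interleukin-1 alpha, carried 14 regions (gene span 129299609 to 129310186), all higher in set 1, with sums of 2033, 2119 and 1943 in set 1 against 804, 726 and 713 in set 2. Il1b, its secreted relative, had 1707, 1649 and 1574 against 1042, 1163 and 1054, and Avp, the vasopressin precursor, 143, 130 and 123 against 94, 47 and 80. None of the 3 overlapped between the sets, and Il1a stood highest at 2.72-fold (2.42 to 2.97). Oxt, the oxytocin precursor, carried no region.

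Beyond the mark 4 of 9 genes of this list with regions were higher in set 1 by sum (Ghrh, Wfdc2, Sulf2 and Chrna4, the latter turning to −0.02 after rescaling) and 5 in set 2 (Cbln4, Mc3r, Bmp7, Edn3 and Ntsr1), with a median log2 ratio of −0.37, beside 96 of 224 genes and a median of −0.13 over all genes with regions there. Edn3, the endothelin that guides melanocyte and enteric neuron precursors, carried 23 regions, all higher in set 2, with 322, 412 and 294 in set 1 against 1310, 1343 and 1212 in set 2. Bmp7, a relative of Bmp2, had 6978, 6719 and 6458 against 9684, 10325 and 9532 over 33 regions. Both BMP genes of the stretch thus had higher sums in set 2, by 4.55-fold at Bmp2 and 1.47-fold (1.37 to 1.60) at Bmp7, and Edn3 stood at 3.76-fold (2.94 to 4.57). Ghrh, the growth hormone releasing hormone, had 472, 458 and 428 in set 1 against 167, 216 and 212 in set 2. Gdf5 and Sstr4, a joint morphogen and a somatostatin receptor, carried no region.

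All 44 regions of Sulf2 were higher in set 1, and 40 of them were separated. Their sums were 3789, 3899 and 3626 in set 1 against 792, 773 and 1001 in set 2, a ratio of 4.41 (3.62 to 5.04). Of the 353 regions in the 1 Mb window around it, at 166 Mb, 247 were higher in set 1, and 177 were separated that way against 57 toward set 2. The summed values of the window differed by 0.10 on the log2 scale (−0.10 after rescaling). Among regions of the stretch with a sum of at least 100, the largest ratio toward set 1 was at a 200 bp region in this gene (166146301 to 166146500). Its values were 35, 50 and 43 against 4, 2 and 0, and its log2 ratio of 4.20 became 5.01 without the highest set 2 value.

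Developmental transcription factors are the classical Polycomb targets. Of 25 such genes beyond the mark, 14 carried regions, 4 with sums higher in set 1 (Tcf15, Hnf4a, Nfatc2 and Sox18, of which Hnf4a turned to −0.05 after rescaling) and 10 in set 2, with a median log2 ratio of −0.20. Over all genes with regions on that side, 128 of 224 leaned to set 2 and the median was −0.13. Nkx2-2, a factor of ventral spinal cord and islets, had 1878, 2137 and 1729 in set 1 against 2814, 3390 and 2857 in set 2 over 13 regions, and Pax1, a factor of the sclerotome, 1063, 1034 and 1042 against 1603, 1744 and 1547 over 5. All regions of both genes were higher in set 2. Tshz2, a zinc finger factor of the trunk, had 120 of 122 regions higher in set 2, with 6495, 6856 and 5592 against 10889, 12405 and 11156.

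Other developmental factors lay near balance or went the other way. Foxa2, the pioneer factor of endoderm, had sums of 877, 949 and 873 in set 1 against 999, 912 and 811 in set 2. Sall4, a pluripotency factor, had 2995, 2829 and 2808 against 2758, 3066 and 2834. The sets overlapped at both. Nfatc2, a calcium-regulated factor of immune cells, had 1469, 1368 and 1494 against 631, 738 and 793 over 27 regions, all higher in set 1 (2.00-fold, 1.72 to 2.37). Snai1 and Cebpb, which drive mesenchymal and adipocyte programmes, and Id1 carried no region. Below the mark Ebf4 was the list's member, with 26 of 28 regions higher in set 1 and sums 1.35-fold higher (1.27 to 1.40).

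Of 23 neuronal genes beyond the mark, 19 had regions, 6 with sums higher in set 1 (of which Kcng1 and Zbtb46 turned to −0.14 and −0.07 after rescaling) and 13 in set 2. Their median log2 ratio was −0.23, beside −0.13 and 128 of 224 toward set 2 for all genes there. Slc24a3, a sodium/calcium exchanger, had 195 of 197 regions higher in set 2, with 14710, 14974 and 13953 in set 1 against 26469, 27487 and 25305 in set 2. Phactr3, a phosphatase and actin regulator, had all 130 higher in set 2, with 15844, 15428 and 14344 against 28051, 31025 and 28074, and Ptprt, a receptor tyrosine phosphatase, all 49, with 1340, 1336 and 1210 against 3240, 3490 and 3118. None of the 3 overlapped, and Ptprt stood highest at 2.53-fold (2.33 to 2.88). Syndig1, a synapse protein, had low values, 37, 26 and 18 against 273, 214 and 248 over 14 short regions. Below the mark 6 of 7 neuronal genes with regions had sums higher in set 1, the exception being Sema6d, a semaphorin, with 784, 812 and 687 against 1420, 1657 and 1573; for all genes on that side it was 65 of 72.

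Of the immune and endothelial list beyond the mark 5 of 7 genes with regions had sums higher in set 1, with a median log2 ratio of 0.40, where all genes had 96 of 224 and −0.13. Cd40, a costimulatory receptor of antigen-presenting cells, had 4036, 3926 and 3718 in set 1 against 4309, 4440 and 4436 in set 2 over 11 regions. The sets did not overlap there, and set 2 was 1.13-fold higher (1.07 to 1.19). Of the epithelial and endodermal list 3 of 9 were higher in set 1 (Hnf4a, which turned on rescaling as above, Wfdc2 and Lama5). The list of matrix and fibroblast genes had 8 of 9 higher in set 1, and Cyp24a1, a vitamin D hydroxylase, in set 2. Lama5, a laminin chain of basement membranes, had 2023, 1948 and 1998 against 884, 861 and 899 over 21 regions, Matn4, a matrilin, 299, 308 and 270 against 117, 156 and 100, and Myl9, a contractile light chain, 339, 292 and 237 against 159, 156 and 153. The sets overlapped at none of these 3, and the list's median of 0.89 lay above that of all genes with regions on that side (−0.13). The 9 genes are few and were put together with earlier results known, so nothing particular is read from it.

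Among genes that every cell uses, a region was listed at or within 2 kb of 1 of 6 below the mark (Snrpb) and 3 of 28 beyond it (Snrpb2, Psmf1 and Rpn2). The regions with the highest sums at Snrpb, Snrpb2 and Psmf1 lay outside the gene span, 1.72, 1.12 and 1.25 kb from it. Of all named genes 34.1% below and 46.8% beyond the mark had a region. The region near Rpn2, a subunit of the oligosaccharyltransferase, had 99, 139 and 81 in set 1 against 60, 41 and 74 in set 2; it also touched Mroh8. Among imprinted genes Gnas, a G protein subunit with parent-specific transcripts, carried 7 regions with overlapping sums (449, 378 and 386 against 391, 401 and 446), and H13 and Mcts2, which share a region, were higher in set 1.

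Regions of the 2 leans differed in length on the 2 sides. Below the mark the median length was 650 bp for regions higher in set 1 and 300 bp for regions higher in set 2, and beyond it 500 and 450 bp. Among regions over 2 kb long 236 of 240 below the mark were higher in set 1 (98.3%), and 173 of 727 beyond (23.8%). In the shortest class, 50 to 200 bp, the shares were 61.5% of 366 and 22.8% of 1648. Of all regions on these sides 75.7% and 29.3% were higher in set 1. Shares by length were not computed over the whole table, and the stretch was chosen by direction, so nothing particular is read from them. The longest region below lay in Acoxl, an acyl-CoA oxidase homologue, over 15.85 kb (128019051 to 128034900), with 4517, 4787 and 4727 in set 1 against 3152, 3083 and 2956 in set 2. The share higher in set 1 rose with length below the mark, while beyond it the shortest and longest classes had the lowest shares, and the sets did not overlap in this region.

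Levels of the higher set lay close together for both leans. Regions higher in set 1 had a median of 190 per kilobase in set 1 and 116 in set 2 below the mark, and 192 and 122 beyond. Regions higher in set 2 had 89.6 in set 1 and 180.0 in set 2 below, and 103 and 189 beyond. The share of regions inside a gene was 39.6% and 50.9% for the leans to set 1 and set 2 below, and 43.8% and 39.0% beyond.

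Promoters with a region were poor in CG pairs. RefSeq promoter windows of 300 bases (250 before and 50 after a start) were at hand for 960 genes of the stretch, 1196 windows in all, and 189 of them overlapped a region. CG, which reads the same on both strands, was counted in each. The median was 5 in windows with a region higher in set 1 on either side of the mark (40 and 39 windows) and 4 in the 107 windows beyond it with a region higher in set 2. It was 14 and 10 in windows without a region below and beyond the mark, and 7 over all 32851 windows of the table. Windows with at least 10 CG pairs made up 17.5%, 17.9% and 19.6% of the former 3 groups and 43.5% of all windows. Sulf2, Mc3r and Ntsr1, printed above, are among the CpG-rich exceptions. A start without a listed region may carry the mark alike in both sets, since the table lists regions that differ.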

How the data were processed

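H3K27me3 chromatin immunoprecipitation libraries of 3T3 fibroblasts were sequenced, 3 per construct, and compared by the authors in 1 deposited table without a header. Reads went through CASAVA, Trimmomatic 0.36 and BWA 0.7.17 on GRCm38, per the submitters' processing notes. Which program called the regions, how it scaled them and whether it used the inputs was not given in the sources used here. A further column of the deposited table holds a score that is 1000 in every row and was not used. The 6 values per region are deposited whole numbers that look like rescaled, rounded counts, so they are of no stated unit and no count model was fitted. The table lists regions with a p up to 0.1 by the authors; that p was ignored except in 1 alternative.

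Region edges lie on a grid of 50 bp. Values were summed per library over regions, windows and genes with Python 3.11.15 and pandas 2.3.3, checked on simulated data. Regions were placed by their start in 1 Mb windows. Ratios of single regions use a pseudocount of 1. Genes (RefSeq, GRCm38.p6, 20503 named) took regions within 2 kb. The members and lists were chosen with earlier results of these data known. Named regions were, by rule, the highest in each of the 5 windows on either side of 140 Mb, the 3 largest ratios per side and direction with a sum of at least 100, the 5 longest and the 5 nearest to 140 Mb per side, and up to 3 genes per list and side; other genes and the 8 pieces were chosen after their values were seen. Alternatives covered scaling, filters, window size and placement, left-out libraries and gene flanks. Some genes that the rule selects are not reported here.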

Additional observations from a re-analysis of the deposited data

How the results depend on the processing

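No paired analysis was possible because the deposited columns carry no replicate numbers. Leaving out each library in turn gave a share higher in set 1 of 75.5% to 75.8% below 140 Mb and 29.3% to 29.5% beyond, and log2 ratios of 0.39 to 0.41 and −0.27 to −0.23. The share below moved to 78.5% at the authors' p under 0.05, 77.9% at a sum of at least 100 and 82.9% when the sides were split at 133 Mb, a split chosen after seeing the data. The share beyond moved to 25.7% with separated regions only, 27.2% at p under 0.05 and 30.6% at a sum of at least 100. The log2 ratios below and beyond were 0.20 and −0.45 with the sets rescaled to equal sums, 0.51 and −0.53 as the median of regions, and 0.44 and −0.32 with separated regions only. Rescaling took the share of windows beyond the mark that lean to set 1 from 20% to 5%, and, an alternative chosen after seeing the data for the position, the first change of lean from 133 to 121 Mb, because the window at 121 Mb is near balance. It turned 9 of 58 windows, those at 121 (−0.15), 124 (−0.028), 134 (−0.16), 155 (−0.031), 156 (−0.035), 164 (−0.19), 165 (−0.19), 166 (−0.10) and 168 Mb (−0.047). Over all genes with regions, those that leaned to set 1 fell from 65 to 63 below the mark and from 96 to 78 beyond. Singly, 105 genes were rescaled, those of the lists with regions and some added ones. Rescaling turned 7 of these 105, Fermt1 (−0.11), Nol4l (−0.19), Dlgap4 (−0.053), Hnf4a (−0.053), Kcng1 (−0.14), Chrna4 (−0.022) and Zbtb46 (−0.067), and the piece from 163 to 169 Mb (−0.15). Rescaling of genes and pieces was chosen after seeing the data. Each shift is the 0.19 that the rescaling subtracts. Of 79 named regions 0 changed direction with another pseudocount or without a library, and 10 moved by over 1.5 times without 1 library. Depth is unknown, so how far low values limit these ratios cannot be given.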
